A study of Mus musculus with 6 samples.

Results

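The interferon-stimulated antiviral genes are the genes that cells switch on when interferon reaches their surface receptors. A list of 38 of them was examined in megakaryocytes, the polyploid marrow cells that release platelets, with 32 type I interferon-induced genes and 6 interferon-inducible GTPases. A member was taken where an array row carried its symbol, or a synonym of it, as the only gene symbol, and where several rows did so the brightest over the 6 arrays was taken. This gave 36 measured members, 31 type I induced genes and 5 GTPases, of 30063 named genes in all. Ifi44 had no row, and Gbp5 was named only on a row shared with Gbp2b, so neither is among the 36.

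The cells came from bone marrow of mice in which MLL-AF9, a fusion oncogene, had induced acute myeloid leukaemia (AML), and of healthy control mice. All mice were female and of strain C57. The gate took cells with high side scatter, high CD41 and a DNA content of at least 8N, which went straight into Trizol, and 250 ng of total RNA was labelled for each whole-transcript array. There were 3 arrays from AML mice and 3 from control mice, called biological replicates in the labels. The mice's ages, how many mice went into a sort and how MLL-AF9 was introduced are not given in the sources used here. Values are the deposited log2 values, differences are AML minus control on that scale, ± is the SD over the n = 3 arrays of a group, and every adjusted p is limma's after Benjamini-Hochberg adjustment over all named genes, with a threshold of 0.05. Since no animal numbers are given, a p measures the spread between these samples. An exact permutation test of 3 against 3 arrays cannot go below p = 0.1 and was not used.

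Type I interferons signal through the receptor chains IFNAR1 and IFNAR2 and the kinases JAK1 and TYK2 to a complex that holds STAT2 and IRF9 and binds the interferon-stimulated response element (ISRE). Interferon gamma signals through IFNGR1 and IFNGR2 to the gamma-activated sequence (GAS), and it is a strong inducer of the guanylate-binding proteins (GBP) and the immunity-related GTPases (IRG). The induced proteins sense foreign RNA, degrade it, block its translation, deplete nucleotides or attack the membranes of pathogen vacuoles. In the megakaryocyte lineage, interferon-induced membrane proteins such as IFITM3 are known for limiting viral entry.

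Of the 36 measured members, 11 fell in AML and 0 rose in the limma fit, against a background of 6.25% of all named genes that fell and 4.49% that rose. Brighter genes passed more often. Of the 13242 named genes above a level set by olfactory and vomeronasal receptor genes, fitted alone, 15.3% fell, and in that fit 10 of 31 members did. At an unadjusted p under 0.05 there was 1 member with a higher level in AML, Oas1a. With array weights 2 rose, Oas1a and Oas2, where 16.1% of all named genes rose. The members that fell were Samhd1, Ifih1, Oasl1, Parp14, Isg15, Trim25, Ifitm3, Ifi27l2a and Rtp4 of the type I induced genes, 9 of 31 or 29.0%, and Gbp2 and Gbp3 of the GTPases, 2 of 5. The genes best known as an interferon signature, the IFIT, MX and OAS families, contributed 1 of their 10 measured members, Oasl1. All 3 AML arrays lay below all 3 control arrays for 16 members, against 13.1% of all named genes, and above them for 1 member, Oas1a, against 28.2% of all named genes. The groups overlapped for the other 19. The shares of 13.1% and 28.2% include genes below the level set by the receptor genes and were not taken above it alone. The median difference was -0.21 over the members and 0.11 over all named genes, so relative to the whole table the members had a median of -0.31. Over the 13242 genes above the level set by the receptor genes, fitted alone, the median was 0.01.

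Members differ in the DNA letters just before their start. The promoters shown first are examples picked by hand, and all of them hold ISRE letters there. Samhd1, Ifih1 and Oasl1, the members that fell most, hold none before the start and are not shown. The 110 bases before the RefSeq start on mouse build GRCm38.p6 are given 5′ to 3′ on the gene's strand, with capitals for matches to the ISRE letters GAAANNGAAA on either strand, so that a match on the other strand reads TTTCNNTTTC and matches that overlap share letters. Isg15 on chr4:156200819-156200928 (minus strand), Gbp2 on chr3:142620553-142620662 (plus strand) and Gbp3 on chr3:142559934-142560043 (plus strand) fell in AML.
Isg15: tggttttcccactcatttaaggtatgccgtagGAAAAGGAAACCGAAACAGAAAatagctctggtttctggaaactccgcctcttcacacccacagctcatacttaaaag
Gbp2: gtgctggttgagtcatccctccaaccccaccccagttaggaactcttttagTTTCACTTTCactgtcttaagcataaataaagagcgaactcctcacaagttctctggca
Gbp3: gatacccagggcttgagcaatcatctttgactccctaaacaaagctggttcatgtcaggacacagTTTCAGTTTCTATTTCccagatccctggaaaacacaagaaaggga
Ifit1 on chr19:34640779-34640888 (plus strand), Oas1a on chr5:120907526-120907635 (minus strand), Irgm1 on chr11:48871421-48871530 (minus strand) and Igtp on chr11:58199446-58199555 (plus strand) did not pass the threshold and carry the same letters.
Ifit1: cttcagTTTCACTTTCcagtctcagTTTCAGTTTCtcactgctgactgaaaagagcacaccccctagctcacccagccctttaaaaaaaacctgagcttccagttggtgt
Oas1a: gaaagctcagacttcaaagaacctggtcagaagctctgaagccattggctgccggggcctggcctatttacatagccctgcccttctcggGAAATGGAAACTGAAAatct
Irgm1: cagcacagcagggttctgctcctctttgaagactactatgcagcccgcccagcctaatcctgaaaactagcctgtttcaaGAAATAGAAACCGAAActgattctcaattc
Igtp: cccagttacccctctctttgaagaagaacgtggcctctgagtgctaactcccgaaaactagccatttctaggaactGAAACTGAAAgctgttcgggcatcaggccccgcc
The stretch of Isg15 holds 3 overlapping matches, those of Gbp3, Oas1a and Irgm1 hold 2 overlapping ones, that of Ifit1 holds 2 separate ones, and those of Gbp2 and Igtp hold 1 each.

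Over windows of 300 bases, 250 before and 50 after the start, RefSeq gave a promoter for 25 of the 36 measured members. The ISRE letters were present in 16 of the 25 (64.0%), against 693 of 18008 genes tested on the arrays with a window (3.85%). The GAS letters, TTCNNNGAA, which read the same on both strands, were present in 8 of the 25, against 1649 of the 18008 (9.16%). The members were listed because interferon induces them, so these shares describe the list and are no finding of the arrays. The ISRE letters were in the windows of 5 of 8 members that fell (62.5%) and of 11 of 17 that did not pass (64.7%). The GAS letters were in 2 of 8 members that fell (25.0%) and in 6 of 17 that did not pass (35.3%). A match is a description of the letters and not of binding. By class, the ISRE letters were in 12 of 21 type I induced members and in 4 of 4 GTPases. The GAS letters were in 7 of the 21 and in 1 of the 4. Of the members that fell, the windows of Oasl1, Trim25 and Samhd1 held no ISRE letters, that of Samhd1 held the GAS letters, and those of Ifih1 and Ifitm3 held ISRE letters after the start.

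**Figure D1:**
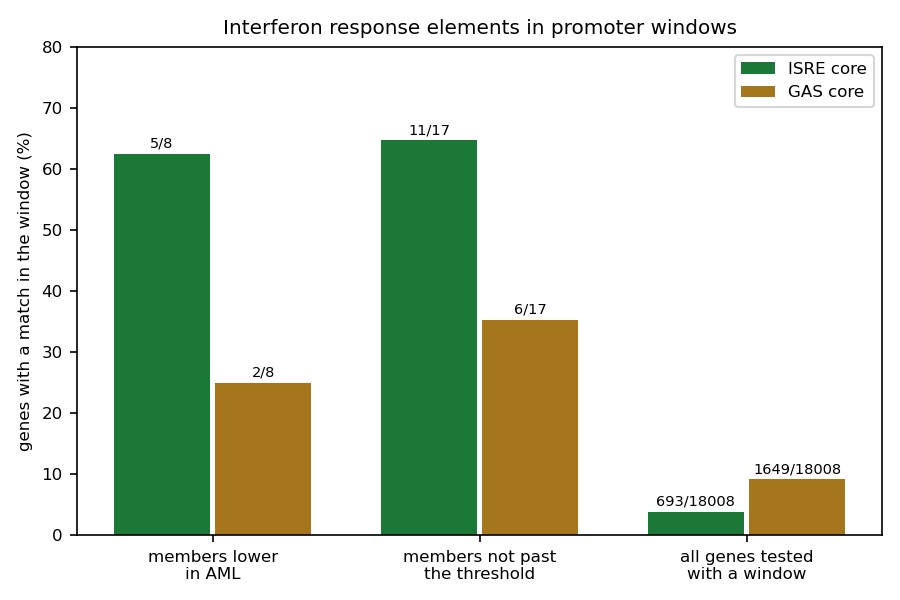
The bars give the percentage of genes whose promoter window of 300 bases holds the ISRE letters (green) or the GAS letters (brown), for members lower in AML, members not past the threshold and all genes tested with a window, with the counts above the bars. The ISRE bars of both member groups stand close together, at 62.5% and 64.7%, far above the 3.85% of all genes tested.

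Some limits of the arrays bear on every value below. The 95th percentile of the mean levels of 1718 olfactory and vomeronasal receptor genes, which marrow cells are not known to use, was 5.51, and it serves as a level below which a gene is called dim. Isg15, Ifit3, Mx1, Mx2 and Iigp1 were at or below it in both groups, and Parp9 in AML. The median of the receptor genes was 3.46 to 3.81 on the AML arrays, highest on AML array 3, and 3.29 to 3.45 on the control arrays. The IFIT, OAS, GBP, IRG, IFITM and Schlafen families have close copies whose probes may share signal, so values of single genes in them are uncertain. In sorted bulk samples, fewer cells of a type and less RNA per cell cannot be told apart. The number of arrays limits the precision.

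All 12 measured markers of megakaryocytes, the labelled cell type, were above the receptor gene level on average in both groups, and 0 of them changed in the limma fit, also at an unadjusted p under 0.05. The log2 of their summed levels was 13.80 to 14.31 on the AML arrays and 13.84 to 14.24 on the control arrays, with Ppbp (adjusted p = 0.424) and Pf4 (adjusted p = 0.546), both platelet chemokines, the brightest. These were the 2 markers with a lower mean in AML, and the other 10 had a higher one. The median difference of the 12 was 0.16, against 0.11 over all named genes and 0.01 over those above the receptor gene level, fitted alone. Some markers of other marrow cells fell, against 6.25% of all named genes and 15.3% of those above the receptor gene level. Of 15 monocyte and macrophage markers 13 fell (summed level 12.72 to 13.08 in AML, 13.33 to 13.48 in control), among them the lysozyme gene Lyz2 (2.83-fold lower, adjusted p = 0.00197) but not the brightest, Ly6c2 (0.32, adjusted p = 0.187). Of 10 neutrophil markers 9 fell (12.85 to 13.20 in AML, 14.44 to 14.68 in control), with the granule gene Ngp at -1.11 (adjusted p = 0.00318) and Retnlg at -1.06 (adjusted p = 0.0011). Of 10 conventional dendritic cell markers 4 fell (9.43 to 9.46 in AML, 10.08 to 10.23 in control), and Flt3, Zbtb46 and Xcr1 were dim in both groups. The brightest of that list, Clec9a and Ccr7, had differences of 0.59 (adjusted p = 0.24) and -0.28 (adjusted p = 0.162). Of the 10, 8 had a lower mean in AML and 2 a higher one. The lowest difference was that of Cd209a, dim in AML and named after its values were seen (-2.91, adjusted p = 2.81e-04). Of 9 plasmacytoid dendritic cell markers 4 fell (8.85 to 8.93 in AML, 9.35 to 9.37 in control), with Lair1 at -1.14 (adjusted p = 0.0018), Tcf4 at -0.39 (adjusted p = 0.0566) and Ccr9 dim in both groups. Of 7 B cell markers 4 fell (8.17 to 8.28 in AML, 8.63 to 8.76 in control), including Cd79a (-0.43, adjusted p = 0.0378) and Cd79b (-0.39, adjusted p = 0.0483), which each lost the call without any 1 of 5 arrays (adjusted p = 0.0596 to 0.157), and Ms4a1 was dim in both groups. Of 9 T and NK cell markers 0 fell and 1 rose in the limma fit, with 2 lower and 3 higher at an unadjusted p under 0.05 (9.32 to 9.66 in AML, 9.32 to 9.55 in control). Of these, 7 were dim in both groups, and the brightest, Nkg7 and Cd4, differed by 0.10 (adjusted p = 0.647) and -0.29 (adjusted p = 0.111). The part of these cells in the members' differences was not tested.

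ISG15 is a ubiquitin-like protein that is attached to other proteins after interferon, and USP18 removes it and restrains the type I receptor. Isg15 had 4.39, 4.69 and 4.53 in AML, against 5.35, 5.20 and 5.36 in control. All AML arrays lay below all control arrays, but the gene was dim in both groups, so the difference of -0.77 (adjusted p = 0.00559) is given without a fold. Usp18 had 6.75, 6.71 and 6.35 in AML, against 6.54, 6.67 and 6.72 in control. Its groups overlapped, and the difference of -0.04 did not pass (adjusted p = 0.837).

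The IFIT proteins bind foreign RNA and block its translation, and 0 of 3 passed the threshold in the limma fit, also at an unadjusted p under 0.05. Ifit1 had 6.82, 6.73 and 6.45 in AML, against 7.07, 6.38 and 6.73 in control, with overlapping groups and a difference of -0.06 (adjusted p = 0.825). Ifit2 had 5.82, 5.75 and 5.25 in AML, against 6.15, 5.66 and 5.62 in control, again overlapping, at -0.20 (adjusted p = 0.476). Ifit3, dim in both groups, had 4.66, 4.56 and 3.82 in AML, against 4.74, 4.67 and 4.83 in control. Its AML arrays were all lower, 1 of them far from the other two, and the difference of -0.40 did not pass (adjusted p = 0.226). The MX proteins are dynamin-like GTPases that trap viral nucleocapsids, and many laboratory strains of mice carry defective copies. Mx1 was 4.42 to 4.57 in AML and 4.37 to 4.53 in control (difference 0.05, adjusted p = 0.645). Mx2 was 4.90 to 5.14 in AML and 4.95 to 5.18 in control (difference -0.07, adjusted p = 0.615). Both were dim and their groups overlapped.

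The oligoadenylate synthetases make the second messenger that turns on RNase L, and of the OAS-like proteins of mice Oasl1 lacks that activity. Within the family the members stood apart from each other. Oasl1, described in mice as a brake on the translation of Irf7, had 5.96, 6.05 and 5.68 in AML, against 6.82, 7.06 and 6.98 in control. The groups were separate and Oasl1 fell by 1.06 on the log2 scale (95% confidence interval -1.34 to -0.78, adjusted p = 0.00318), a 2.08-fold lower level in AML. Oas1a had 7.61, 7.64 and 7.12 in AML, against 7.03, 7.08 and 7.07 in control. Every AML array was higher, AML array 3 by the least, and the difference of 0.39 did not pass (adjusted p = 0.115). Oas2 had 6.78, 6.84 and 6.20 in AML, against 6.38, 6.40 and 6.23 in control, a difference of 0.27 (adjusted p = 0.288). AML arrays 1 and 2 were above all control arrays and AML array 3 was below them all. Without AML array 3, Oas1a rose by 0.56 (adjusted p = 0.00585) and Oas2 rose by 0.47 (adjusted p = 0.0211). Oas3 was 5.80 to 6.10 in AML and 5.84 to 5.97 in control (0.05, adjusted p = 0.708). Oasl2 was 5.94 to 6.02 in AML and 6.08 to 6.11 in control, separate groups whose difference of -0.11 did not pass (adjusted p = 0.25).

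Among the sensors of foreign nucleic acid and their regulators, 2 of 6 fell, against 6.25% of all named genes. Above the receptor gene level, fitted alone, 15.3% of all genes fell. Ifih1, which encodes the long double-stranded RNA sensor MDA5, had 5.84, 5.92 and 5.76 in AML, against 6.93, 6.95 and 6.91 in control. The spread within each group was narrow, with means of 5.84 ± 0.08 in AML and 6.93 ± 0.02 in control, and the gene fell by 1.09 (95% confidence interval -1.27 to -0.92, adjusted p = 5.51e-04), 2.13-fold. Trim25, the ubiquitin ligase that activates the short RNA sensor RIG-I, had 7.09, 6.93 and 7.03 in AML, against 7.59, 7.75 and 7.82 in control. The groups were separate, and Trim25 fell by 0.70 (adjusted p = 0.00521), 1.63-fold. RIG-I itself, encoded by Ddx58, had 6.84, 6.78 and 6.41 in AML, against 6.82, 6.84 and 7.02 in control. Its groups overlapped and its difference of -0.22 did not pass (adjusted p = 0.27). Dhx58, which encodes LGP2, a regulator of both sensors, differed by 0.03 (adjusted p = 0.83), and Zbp1, a sensor of Z-form nucleic acid that triggers cell death, by 0.07 (adjusted p = 0.756). Eif2ak2, which encodes PKR, the kinase that stops translation on double-stranded RNA, was 5.73 to 5.94 in AML and 5.93 to 6.10 in control (-0.16, adjusted p = 0.24). Stat2, the transducer of type I signals, was 6.50 to 6.81 in AML and 6.53 to 6.71 in control. These overlapped, with a difference of -0.02 (adjusted p = 0.917).

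The effectors that act on nucleotides and membranes held the member with the lowest difference, and 3 of 6 fell. Of all named genes 6.25% fell, and of those above the receptor gene level, fitted alone, 15.3%. Samhd1, which encodes a hydrolase that depletes deoxynucleotides, had 7.75, 7.78 and 7.53 in AML, against 9.0, 9.18 and 9.24 in control. More than 1 log2 unit separated the groups, with means of 7.69 ± 0.14 in AML and 9.14 ± 0.13 in control, and Samhd1 fell by 1.45 (95% confidence interval -1.70 to -1.21, adjusted p = 6.84e-04), a 2.74-fold lower level. Ifitm3, which keeps viruses from fusing with endosomes, had 8.49, 8.59 and 9.02 in AML, against 9.27, 9.31 and 9.41 in control. The AML arrays were lower and more spread, and Ifitm3 fell by 0.63 (adjusted p = 0.0368), 1.55-fold. Without AML array 1 or 2, or any 1 control array, the adjusted p was 0.0662 to 0.129. Rtp4, a chaperone of receptors on their way to the surface, had 5.87, 6.02 and 5.81 in AML, against 6.37, 6.25 and 6.51 in control. The groups were separate and Rtp4 fell by 0.48 (adjusted p = 0.0278), 1.39-fold, and without AML array 1 or any 1 control array the adjusted p was 0.0591 to 0.0992.

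The remaining 3 effectors did not pass. Rsad2, which encodes viperin, the enzyme that makes a chain-terminating nucleotide, had 7.48, 7.76 and 6.96 in AML, against 7.81, 7.78 and 7.95 in control. Its groups were separate by a narrow margin, with a difference of -0.45 (adjusted p = 0.156). Cmpk2, the mitochondrial nucleotide kinase beside it in the pathway, had 7.15, 7.37 and 6.91 in AML, against 6.98, 7.06 and 7.07 in control, a difference of 0.11 (adjusted p = 0.539). Bst2, which encodes tetherin, a protein that holds budding virions on the cell, had 6.96, 7.02 and 7.13 in AML, against 7.03, 7.37 and 8.00 in control. The control arrays spread widely, and the difference of -0.43 did not pass (adjusted p = 0.217).

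PARP9 and DTX3L form an ADP-ribosylation and ubiquitin ligase complex, and PARP14 acts on the same pathway. Parp14 had 5.69, 5.44 and 5.58 in AML, against 6.32, 6.51 and 6.54 in control. The groups were separate, and Parp14 fell by 0.88 (adjusted p = 0.00311), 1.84-fold. Parp9 had 5.43, 5.47 and 5.55 in AML, against 5.66, 5.70 and 5.73 in control, and was dim in AML. Its difference of -0.22 did not pass (adjusted p = 0.087) although no AML array reached the control arrays, and it passed with array weights, renewed quantile normalization, median centring and cyclic loess (adjusted p = 0.0215 to 0.0364). Dtx3l was 6.16 to 6.30 in AML and 6.22 to 6.50 in control, at -0.08 (adjusted p = 0.542). Of the other type I induced members, Ifi27l2a, which encodes a small hydrophobic protein, had 6.35, 6.26 and 6.20 in AML, against 6.74, 6.74 and 6.93 in control. It fell by 0.53 (adjusted p = 0.0122), 1.44-fold, with separate groups. Xaf1, a partner of an apoptosis inhibitor, differed by -0.05 (adjusted p = 0.71). Ifi35 had 7.46, 7.46 and 7.01 in AML, against 7.18, 7.26 and 7.34 in control, and differed by 0.05 (adjusted p = 0.797).

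**Figure D2:**
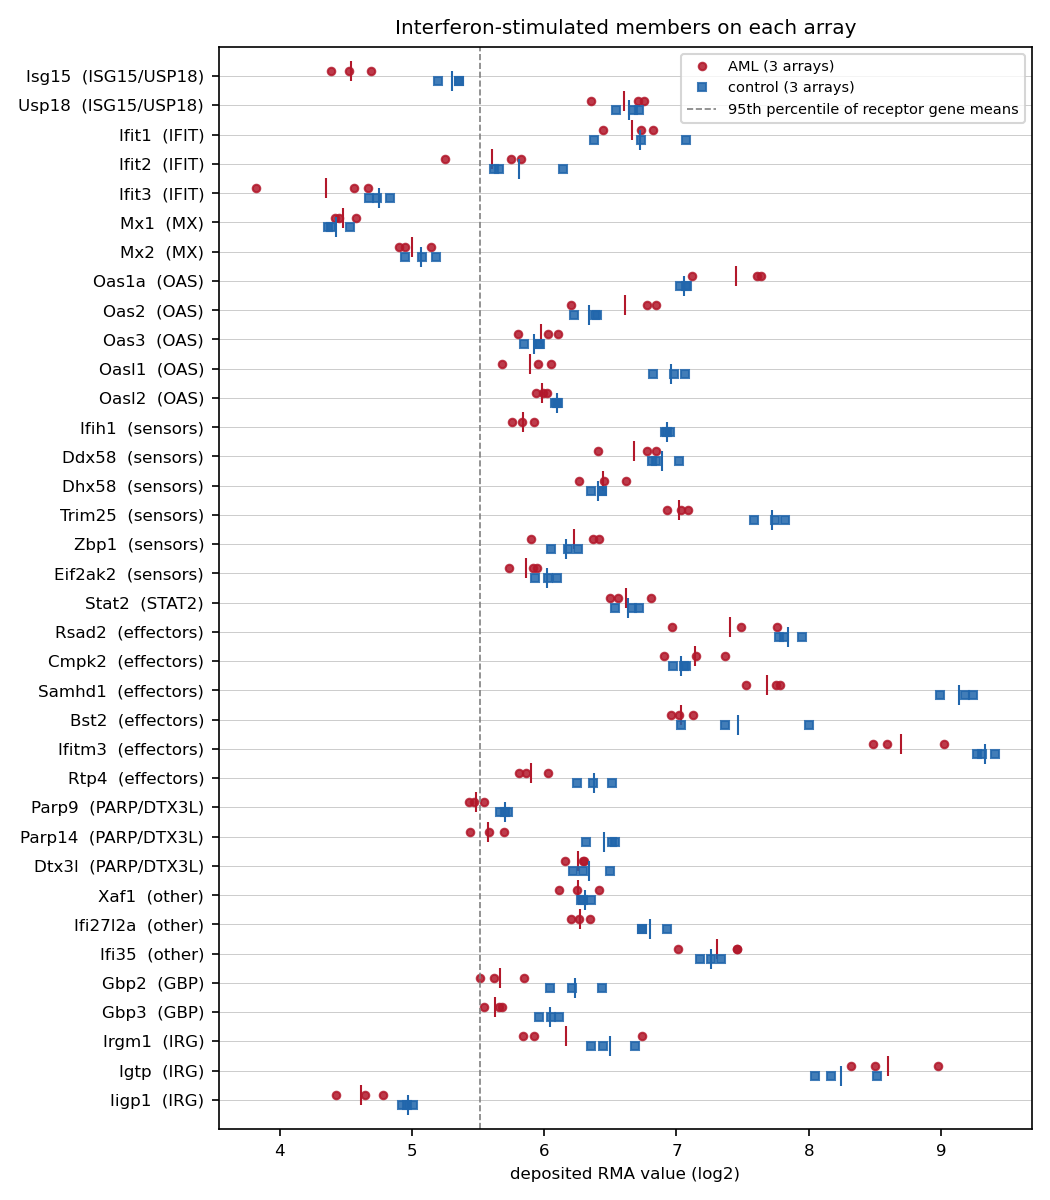
Deposited log2 values of the 36 measured members on each array are drawn as red points for AML and blue squares for control, with group means as short vertical bars, ordered by class, and the dashed line marks the receptor gene level of 5.51. Samhd1, Ifih1 and Oasl1 show wide gaps between red and blue values, while Usp18, Stat2 and most IFIT, MX and OAS members overlap.

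The guanylate-binding proteins coat and break the vacuoles in which bacteria and protozoa live, and both measured members fell. The share over all named genes was 6.25%, and 15.3% over those above the receptor gene level, fitted alone. Gbp2 had 5.52, 5.62 and 5.85 in AML, against 6.04, 6.21 and 6.44 in control. The groups were separate, and Gbp2 fell by 0.57 (adjusted p = 0.0374), 1.48-fold. Gbp3 had 5.54, 5.66 and 5.68 in AML, against 5.96, 6.05 and 6.11 in control, and fell by 0.41 (adjusted p = 0.0211), 1.33-fold. Neither call stood without AML array 1 or 2 or without control array 2 or 3, where the adjusted p was 0.0919 to 0.124 for Gbp2 and 0.0598 to 0.0961 for Gbp3. All 6 AML values of both genes were between 5.52 and 5.85, near the receptor gene level.

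The immunity-related GTPases guard the same vacuoles and, through Irgm1, regulate autophagy, and 0 of 3 passed in the limma fit, while Iigp1 alone had an unadjusted p under 0.05. Irgm1 had 5.84, 5.92 and 6.74 in AML, against 6.45, 6.35 and 6.68 in control. AML arrays 1 and 2 lay below all control arrays and AML array 3 above them, for a difference of -0.33 (adjusted p = 0.35). Igtp, which encodes IRGM3, had 8.50, 8.32 and 8.98 in AML, against 8.52, 8.05 and 8.17 in control, a difference of 0.36 with overlapping groups (adjusted p = 0.23). Iigp1, the effector IRG of mice, had 4.43, 4.64 and 4.78 in AML, against 5.01, 4.97 and 4.93 in control. It was dim in both groups, all AML arrays were lower, and its difference was -0.35 (adjusted p = 0.0687). When AML array 3 was left out, Irgm1 fell by 0.61 (adjusted p = 0.0224) and Iigp1 fell by 0.43 (adjusted p = 0.0308), so that 4 of 5 GTPases fell. In that fit 6.54% of all named genes fell. Iigp1 also passed with array weights, renewed quantile normalization, median centring and cyclic loess (adjusted p down to 0.0115).

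The type I induced genes and the GTPases were set side by side. Differences of the 31 type I induced members ran between -1.45 and 0.39 with a median of -0.16, or -0.26 relative to the median of all named genes. Those of the 5 GTPases ran between -0.57 and 0.36 with a median of -0.35, or -0.46 relative to all. The median of all named genes was 0.11, and that of genes above the receptor gene level, fitted alone, was 0.01. The range of the GTPases lies inside that of the type I genes, and the GTPase median is the difference of Iigp1, which is dim in both groups. Over the other 4 it was -0.37. The difference between the classes was not tested. The 10 IFIT, MX and OAS members had a median of -0.07. Of the 11 members that fell, 7 stayed past the threshold without any 1 array, namely Isg15, Oasl1, Ifih1, Trim25, Samhd1, Parp14 and Ifi27l2a. The other 4 were Ifitm3, Rtp4, Gbp2 and Gbp3. The number of members that fell was 7 when AML array 1 was left out or one of control arrays 2 and 3, and 13 when AML array 3 was. The number of GTPases that fell was 0 when one of AML arrays 1 and 2 or of control arrays 2 and 3 was left out.

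**Figure D3:**
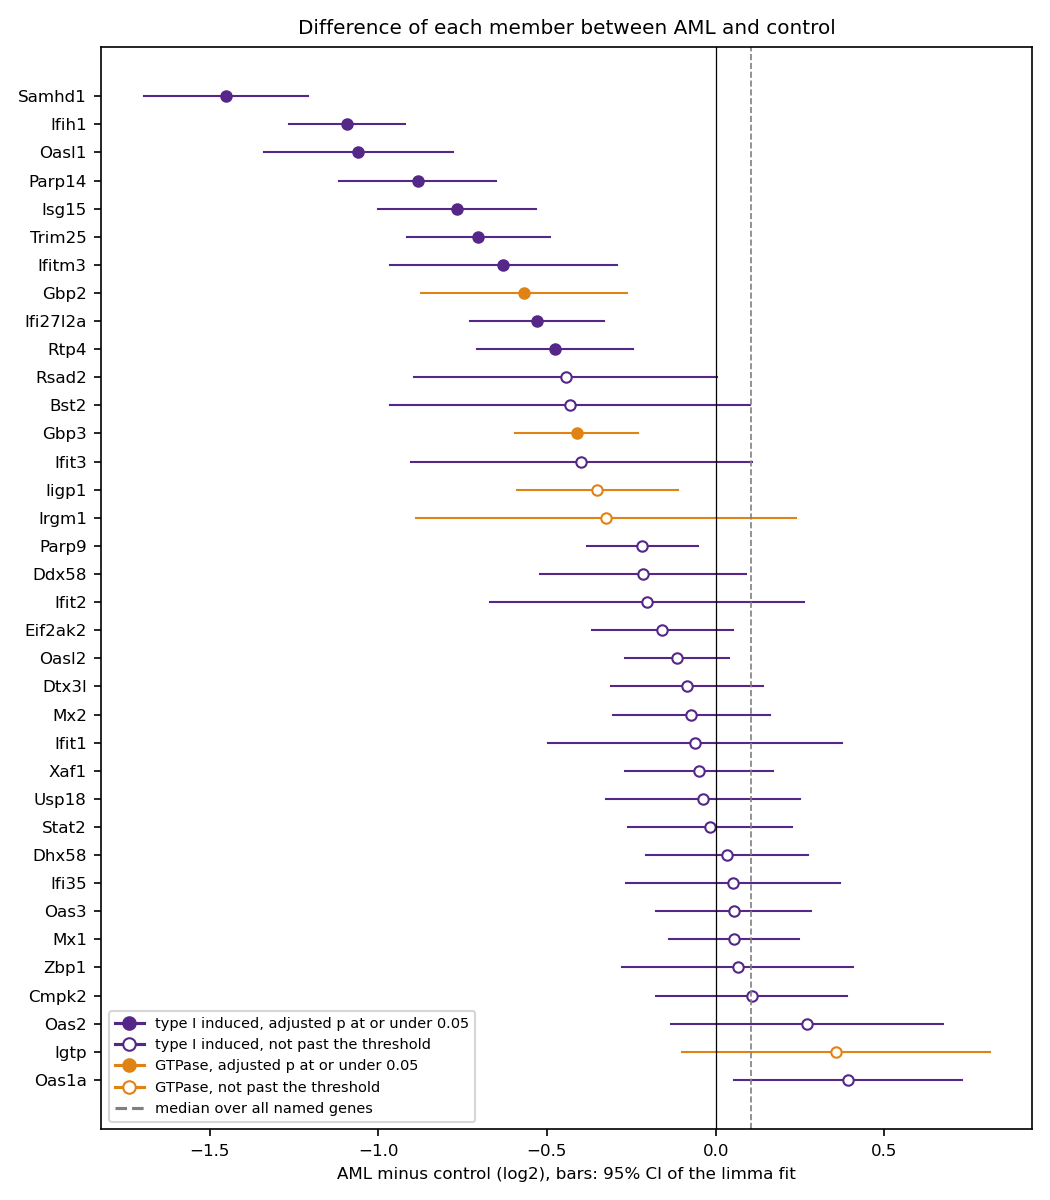
The AML minus control difference of each measured member is drawn on a log2 axis with its 95% confidence interval, in purple for type I induced genes and orange for GTPases, filled where the adjusted p was at or under 0.05, and the dashed line marks the median of all named genes, 0.11. The filled points run from Samhd1 at -1.45 to Gbp3 at -0.41, all left of 0, and the type I and GTPase points interleave.

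Relative to the other two AML arrays, AML array 3 had low values for most IFIT, MX and OAS members and high values for the 5 GTPase members. Of the 10 IFIT, MX and OAS members 9 had their lowest AML value there, as did 22 of 31 type I induced members (71.0%). Over all named genes the share was 40.5%, and over the 13242 above the receptor gene level 58.3%. All 5 GTPase members had their highest AML value on array 3, against 41.0% of all named genes and 24.7% of those above the receptor gene level. Against the mean of AML arrays 1 and 2, AML array 3 was -0.66 for Rsad2, -0.61 for Oas2 and -0.80 for Ifit3, and 0.86 for Irgm1 and 0.57 for Igtp. Ifitm3, a type I induced member, was 0.48 higher there. Of the 9 other interferon-inducible GTPases measured, 2 were highest and 3 lowest on AML array 3, with a median of -0.02. Irgm2, Irf1 and Socs1 were chosen after their values were seen. Irgm2, a further IRG protein, had 5.89, 6.04 and 6.83 in AML, against 6.16, 6.16 and 6.08 in control. Irf1, a transcription factor, had 5.64, 5.68 and 6.33 in AML, against 6.22, 6.29 and 6.24 in control. In both genes AML array 3 was the highest of the 6, and the same held for Socs1, a feedback inhibitor, with 6.13, 6.18 and 6.70 in AML, against 6.11, 6.24 and 6.42 in control. All 12 megakaryocyte markers were also highest on AML array 3 among the AML arrays, by a median of 0.53 over the mean of arrays 1 and 2. The part of that in the members' values was not tested.

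**Figure D4:**
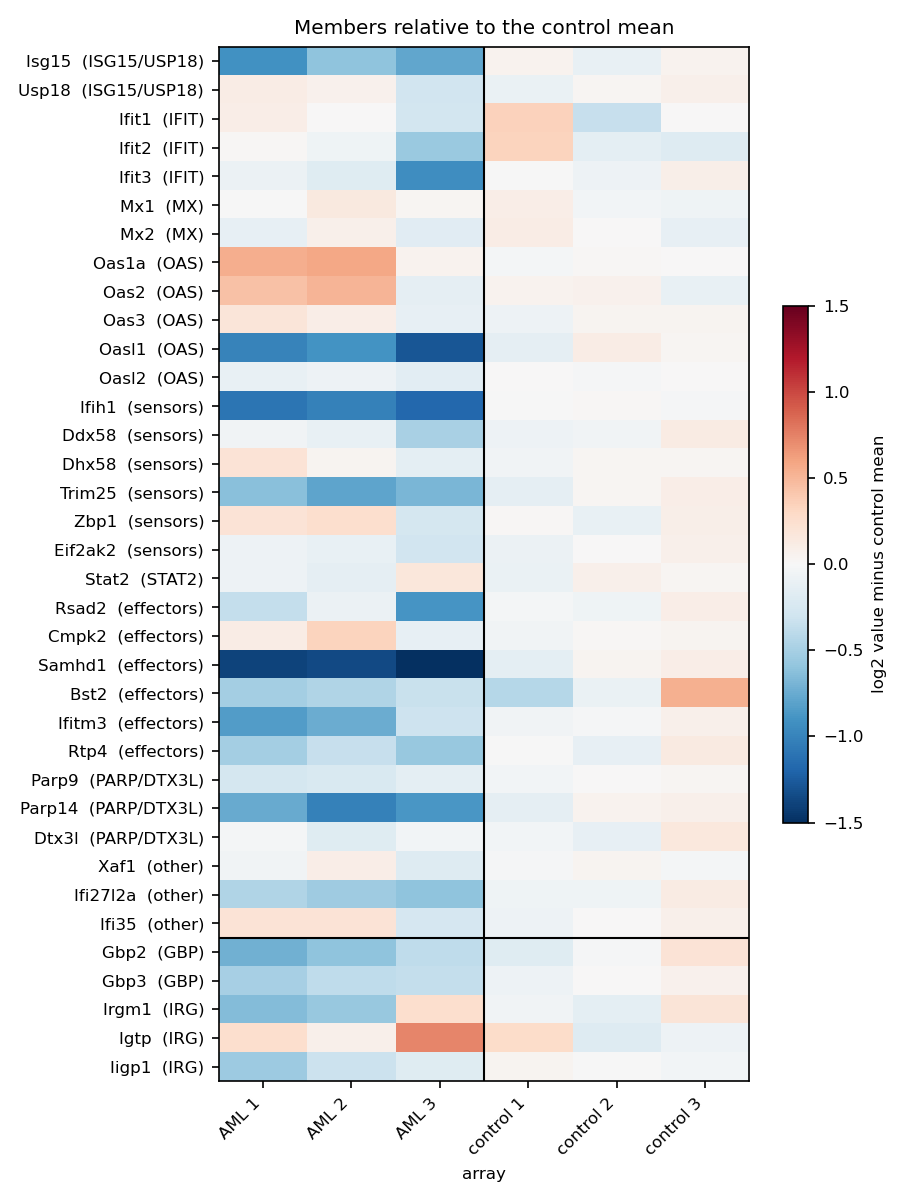
Each cell gives a member's log2 value on an array minus its mean over the 3 control arrays, blue for lower and red for higher, with AML arrays on the left, control arrays on the right, and the GTPases below the horizontal line. The colour scale ends at 1.5 in either direction. On AML array 3 the IFIT and OAS members are bluer and Irgm1 and Igtp redder than on AML arrays 1 and 2.

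Of 139 further genes of the interferon pathway 119 were measured, and 29 fell and 4 rose, or 24.4% that fell, against 6.25% of all named genes. In the fit of genes above the receptor gene level alone 30 of 88 fell, against 15.3% of all genes there. Without control array 2 or 3 the number that fell was 17 or 14, and none rose. Among the 24 ligands and receptors 6 fell and 3 rose, against 6.25% and 4.49% of all named genes. Ifnb1, the interferon made first after infection, had 4.41, 4.45 and 3.77 in AML, against 5.73, 5.86 and 5.70 in control. It was dim in AML and stood just above the receptor gene level in control, and it fell by 1.55 (adjusted p = 0.00384), an at least 1.19-fold lower level, where the AML level is bounded by the receptor gene level. All 11 interferon alpha genes had differences above 0, with a median of 0.32 against 0.11 over all named genes. Of them 3 rose, against 4.49% of all named genes. With renewed quantile normalization 8 were above 0, with median centring or cyclic loess 9, and 1 rose in each. The olfactory and vomeronasal receptor genes also had higher medians on the AML arrays (3.46 to 3.81) than on the control arrays (3.29 to 3.45). The part of that in the interferon alpha values was not tested. Of the 3 that rose, Ifna5 had 5.61, 5.78 and 5.85 in AML, against 5.39, 5.16 and 5.13 in control (difference 0.52, adjusted p = 0.0262, at least 1.17-fold). Ifna7 (0.54, adjusted p = 0.041) and Ifnab (0.43, adjusted p = 0.0483) rose as well, but 8 of the 11 were dim in both groups, these 2 included, and they share much of their sequence. The adjusted p was 0.0796 to 0.111 for Ifna5 without AML array 2 or control array 2 or 3, 0.0628 to 0.146 for Ifna7 without AML array 2 or any 1 control array, and 0.0527 to 0.156 for Ifnab without any 1 array. Ifng, the gamma interferon, was dim in both groups with overlapping arrays (adjusted p = 0.99).

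Of the 6 receptor chains measured 5 fell, against 6.25% of all named genes and 15.3% of those above the receptor gene level. The other, Ifnlr1, named after its values were seen, was dim in both groups and differed by 0.01 (adjusted p = 0.903). Ifnar1 had 6.84, 6.85 and 6.63 in AML, against 7.34, 7.43 and 7.54 in control. Ifnar2 had 8.66, 8.57 and 8.28 in AML, against 9.14, 9.24 and 9.31 in control. Both chains of the type I receptor were lower on every AML array, Ifnar1 with a difference of -0.67 (adjusted p = 0.00753, 1.59-fold) and Ifnar2 with one of -0.72 (adjusted p = 0.0112, 1.65-fold). Ifngr1, the ligand-binding chain of the gamma receptor, had 8.70, 8.22 and 7.74 in AML, against 8.99, 9.26 and 9.43 in control. Ifngr2, its signalling chain, had 7.48, 7.38 and 6.96 in AML, against 8.12, 8.25 and 8.38 in control. Here too no AML array reached the control arrays, with differences of -1.01 for Ifngr1 (adjusted p = 0.042) and -0.97 for Ifngr2 (adjusted p = 0.00981). AML array 3 had the lowest value of all 4 genes. Il10rb, the chain shared with the lambda receptor, fell as well (-0.65, adjusted p = 0.0161, but 0.0574 to 0.0773 without AML array 2 or control array 2 or 3) and was named after its values were seen. Without control array 2 or 3 the adjusted p of Ifnar2 was 0.0561 to 0.057, and without AML array 2 or any 1 control array that of Ifngr1 was 0.0552 to 0.143.

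Downstream of the receptors, 2 of 11 signalling and feedback genes fell in the limma fit and 0 rose. All 11 were above the receptor gene level, and in the fit of such genes alone 2 fell as well. That is 18.2%, a share near the 15.3% of all genes there. At an unadjusted p under 0.05, 3 were lower and 0 higher. Jak1, the kinase shared by both receptors, had 8.66, 8.60 and 8.45 in AML, against 9.14, 9.26 and 9.29 in control. It fell by 0.66 (adjusted p = 0.00545), 1.58-fold, and Pias1, a SUMO ligase, fell by 0.53 (adjusted p = 0.00512), 1.45-fold. The transcription factor genes Irf9 and Irf7 did not pass, with Irf9 at 0.00 (adjusted p = 0.986) and Irf7 at -0.18 (adjusted p = 0.182). Of 10 genes of the sensing routes 4 fell, against 6.25% of all named genes. Above the receptor gene level, fitted alone, 4 of 8 fell, against 15.3% of all genes there. Tlr7, the endosomal receptor for single-stranded RNA, had 7.05, 6.55 and 5.89 in AML, against 8.27, 8.06 and 8.30 in control. It fell by 1.71 (adjusted p = 0.0113), 3.27-fold, with AML arrays that differed from each other by over 1 log2 unit. Tlr9, the receptor for DNA, fell by 1.04 (adjusted p = 0.0124), Sting1, the adaptor of cytosolic DNA sensing, by 0.71 (adjusted p = 0.00364), and Tbk1, the kinase of IRF3, by 0.42 (adjusted p = 0.0381). Without control array 3 the adjusted p was 0.0561 for Tlr7 and 0.0595 for Tlr9, and without any 1 array other than control array 1 that of Tbk1 was 0.062 to 0.147.

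Among 53 further type I induced genes 14 fell and 1 rose, against 6.25% and 4.49% of all named genes. Above the receptor gene level, fitted alone, 16 of 43 fell and 2 rose, against 15.3% and 7.95% of all genes there. Ifitm1, a surface relative of Ifitm3, had 6.30, 6.13 and 6.51 in AML, against 7.98, 8.04 and 8.12 in control. It fell by 1.74 (adjusted p = 4.67e-04), 3.33-fold, and its relative Ifitm6 (-1.95, adjusted p = 0.00767, at least 3.85-fold lower), named after its values were seen, fell with it. Cxcl10, a chemokine for activated T cells, was 4.89 to 5.31 in AML, where it was dim, and 6.54 to 6.97 in control. It fell by 1.68 (adjusted p = 0.0014), an at least 2.35-fold lower level. Slfn2, a Schlafen protein of lymphocyte and monocyte quiescence, had 7.06, 6.89 and 6.69 in AML, against 8.26, 8.47 and 9.08 in control (-1.72, adjusted p = 0.00456, 3.30-fold). Its relative Slfn5, dim in AML, fell by 1.03 (adjusted p = 0.00255), at least 1.38-fold. Uba7, the enzyme that activates ISG15 for conjugation, had 7.08, 6.84 and 7.16 in AML, against 6.67, 6.63 and 6.56 in control. It was the gene of this list that rose (0.41, adjusted p = 0.0441, 1.33-fold), and its adjusted p was 0.0656 to 0.146 without any 1 array other than AML array 2.

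Of 9 further interferon-inducible GTPases 2 fell, both GBP proteins, against 6.25% of all named genes. Above the receptor gene level, fitted alone, 2 of 8 fell, against 15.3% of all genes there. Gbp8 had 5.65, 5.83 and 5.61 in AML, against 6.50, 6.63 and 6.38 in control. Its groups were separate and it fell by 0.81 (adjusted p = 0.00412), 1.75-fold. Gbp9 had 5.59, 5.86 and 5.65 in AML, against 6.07, 6.11 and 6.05 in control. It fell by 0.38 (adjusted p = 0.0421), 1.30-fold, and its adjusted p was 0.0668 to 0.155 without any 1 array other than AML array 2. Of 12 genes of antigen processing and other gamma-induced genes 1 fell, or 8.33%, a share near the 6.25% of all named genes. This was Cxcl9, a chemokine induced by interferon gamma, with 5.72, 6.43 and 6.37 in AML, against 8.32, 7.90 and 8.13 in control. It fell by 1.95 (adjusted p = 0.00244), 3.85-fold, with a wide gap between the groups.

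**Figure D5:**
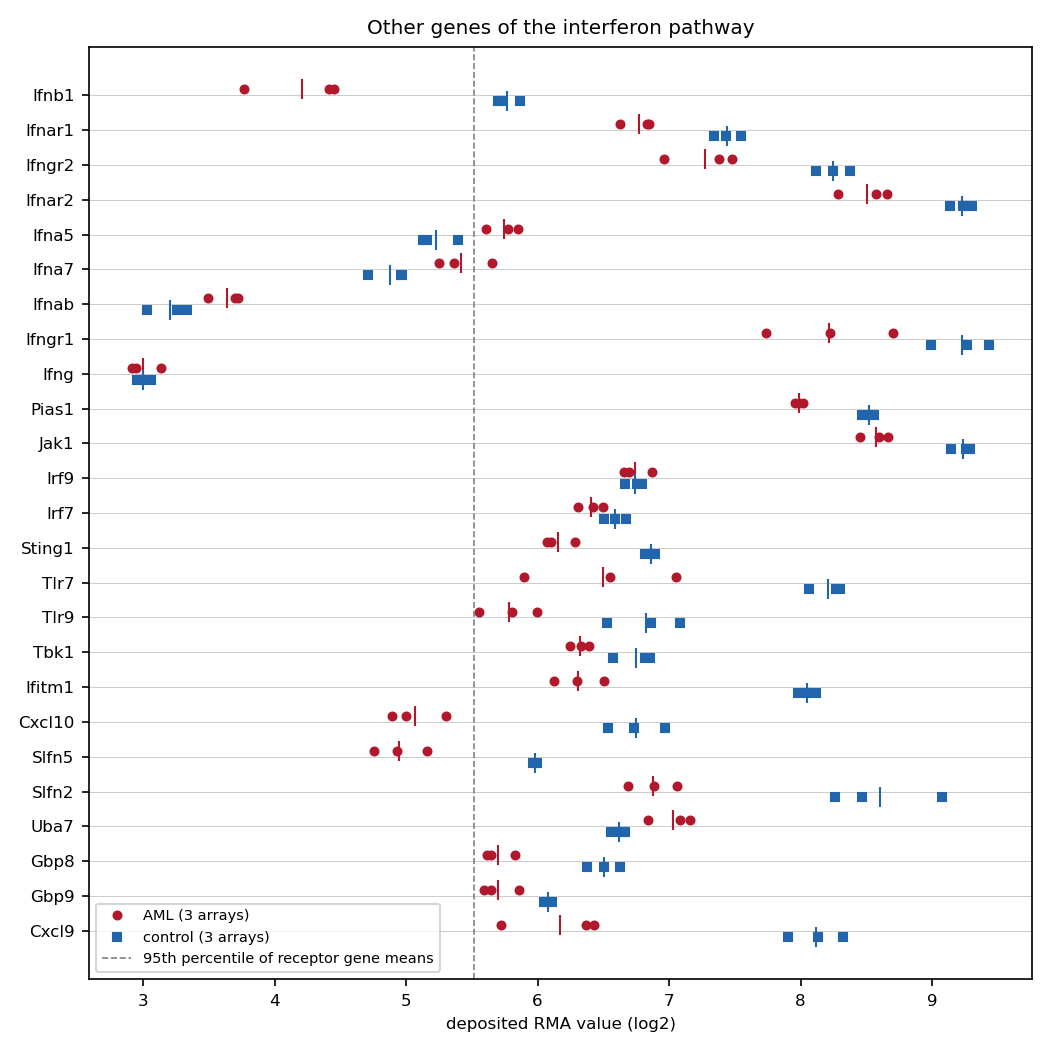
Deposited log2 values of named ligands, receptors, signalling genes, sensing genes and other interferon-induced genes are drawn for each array as red points for AML and blue squares for control, with group means as short vertical bars, and the dashed line marks the receptor gene level of 5.51. Ifnar1, Ifnar2, Ifngr1 and Ifngr2 have all red points left of all blue squares, while Ifna5, Ifna7, Ifnab and Uba7 have them to the right and Irf9 and Ifng overlap.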

How the data were processed

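Total RNA of 6 sorts was hybridised to an Affymetrix whole-transcript array, 1 array each. The authors deposited log2 values made with RMA, with no version named, per the submitters' processing notes. RMA subtracts background, equalises the distributions of the arrays and summarises the probes of a row, so a change shared by most genes is partly removed. No source used here gives the genome build of the array design.

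Of 72688 rows, 30604 carried 1 gene symbol in the platform annotation, 2146 several and 39938 none. Symbols were updated through a RefSeq table of GRCm38.p6, by gene number for 22818, by symbol for 7476 and by synonym for 308, and 2 did not match. Of 429 genes with more than 1 row the brightest row was kept, leaving 30063 genes. limma 3.58.1 (lmFit and eBayes) in R 4.3.3, with data.table at version 1.17.8, was fitted to the deposited log2 values of all of them, AML against control, two-sided, without covariates or a filter. The fit was run on simulated independent normal values with planted changes, which checks the code and not the calls made here. Promoter windows came from RefSeq, and summaries and figures were made with matplotlib 3.10.9, numpy 2.4.6 and pandas 2.3.3 in Python 3.11.15.

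The members, lists and tests were chosen with earlier results of these data known. All members are named, together with up to 4 genes in each direction of each pathway list with the smallest p, 9 fixed pathway genes, 1 of which is not reported here, and the 2 brightest of each marker list. Any other gene was chosen after its values were seen, including markers named only as dim. The labels do not say whether same-numbered arrays pair. The correlations of their deviations were -0.36, 0.14 and -0.29, and with 3 arrays per group they cannot decide it. The alternatives were leaving out each array, array weights, the replicate number as a block, a trend of variance on level, 3 other normalizations, 2 filters on dim genes, averaging the rows of a gene, a 1.5-fold minimum and adjustment over all rows.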

Additional observations from a re-analysis of the deposited data

How the results depend on the processing

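Over all alternatives, 528 of 602 values of single members kept their direction and their side of the threshold, 31 lost a call, 14 gained one and 29 changed sign. The cause was not tested.

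The number of members that fell, otherwise 11, was 7 with the replicate number as a block, with a 1.5-fold minimum and with adjustment over all rows of the table, and 7 to 13 without single arrays. The number that rose was 2 with array weights, where 16.1% of all named genes rose, and 0 to 2 without single arrays. Type I induced members that fell numbered 7 to 9 without single arrays, and GTPases 0 to 4. GTPases that fell numbered 1 with the block, 0 with the 1.5-fold minimum and 0 over all rows. Pathway genes that fell numbered 14 with the block and 14 to 28 without single arrays. Those that rose numbered 0 with the block, 14 with array weights, 1 with median centring, 2 with cyclic loess, 2 without genes at or below the receptor gene level, 0 with the 1.5-fold minimum, 0 over all rows and 0 to 5 without single arrays. The median of the type I members was -0.28 with median centring and -0.21 to -0.09 without single arrays, and that of the GTPases -0.44 to -0.26. The labels do not say whether same-numbered arrays pair, so what a call lost with the block means was not tested.

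All named genes that fell and rose numbered 1880 and 1350 as reported, 861 and 206 with the block, 3014 and 4839 with array weights, 2712 and 505 with median centring, 1126 and 439 with the 1.5-fold minimum and 1163 and 401 over all rows. Without single arrays they numbered 782 to 1967 and 185 to 1639. The median over all named genes was 0.11 as deposited and -0.01 with median centring.

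The values that changed sign belong to genes not past the threshold. With array weights Usp18 was 0.043, Ifit1 0.19, Ifit2 0.013 and Irf9 -0.052. With renewed quantile normalization Usp18 was 0.018, Ifit1 0.0038, Mx1 -0.11 and Stat2 0.044. With median centring Mx1 was -0.066, Oas3 -0.067, Dhx58 -0.088, Zbp1 -0.055, Cmpk2 -0.014, Ifi35 -0.070, Irf9 -0.12 and Nkg7 -0.018. With cyclic loess Mx1 was -0.10 and Stat2 0.016. Without single arrays the range was -0.11 to 0.090 for Usp18, -0.24 to 0.11 for Ifit1, -0.0091 to 0.14 for Oas3, -0.054 to 0.12 for Dhx58, -0.026 to 0.23 for Zbp1, -0.11 to 0.045 for Stat2, -0.0063 to 0.22 for Cmpk2, -0.13 to 0.024 for Xaf1, -0.024 to 0.20 for Ifi35, -0.063 to 0.045 for Irf9, -0.070 to 0.040 for Ifng and -0.0026 to 0.25 for Nkg7. Signal near the receptor gene level limits Isg15, Ifit3, Mx1, Mx2, Iigp1 and Parp9, whose size of change cannot be read.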

Other observations

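Rows that carry several gene symbols were left out of the members, and some of them belong to interferon-induced genes, chosen here after their values were seen. Adjusted p-values are limma's over all 72688 rows. The row shared by Gbp2b and Gbp5, which is the nearest measure of Gbp5, had 4.17, 4.42 and 4.41 in AML, against 4.68, 4.80 and 4.70 in control. All AML arrays were lower, but the row was dim and its difference of -0.39 did not pass (adjusted p = 0.0806). The row of Gbp6 and Gbp10 had 5.50, 5.80 and 5.47 in AML, against 5.89, 5.91 and 5.90 in control. There AML array 3 was the lowest of the 6, and the difference of -0.31 did not pass (adjusted p = 0.147). A row shared by Tgtp1 and Tgtp2, IRG proteins of mice, had 6.13, 6.23 and 7.33 in AML, against 6.95, 6.91 and 7.11 in control. A second row that adds Gm12185 to the pair had 6.17, 6.15 and 7.08 in AML, against 6.78, 6.60 and 6.87 in control. On both rows AML arrays 1 and 2 lay below all control arrays and AML array 3 above them, the pattern that Irgm1 showed.

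The row shared by Ifi47, also an IRG gene, and Olfr56 had 5.66, 5.70 and 6.10 in AML, against 5.83, 5.46 and 5.58 in control, and AML array 3 was again the highest of the 6. The row of Ifi27 and Ifi27l1 had 8.56, 8.64 and 8.24 in AML, against 7.90, 7.86 and 7.96 in control. It was higher on every AML array, opposite to Ifi27l2a, and its difference of 0.57 did not pass (adjusted p = 0.0563). A row of Psme2, Psme2b and Psme2b-ps, of which Psme2 encodes a subunit of the proteasome activator induced by interferon gamma, had 7.66, 7.80 and 7.64 in AML, against 8.31, 8.28 and 8.38 in control. It fell by 0.62 (adjusted p = 0.0163), with separate groups. A second row, of Psme2 and Psme2b, had 8.20, 8.23 and 8.00 in AML, against 8.30, 8.31 and 8.41 in control, and its difference of -0.20 did not pass (adjusted p = 0.245).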
